A study of Mus musculus with 4 samples.

Results

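The Hox genes were followed through the cell types of prostate tumours from castrated mice, by taking every gene symbol made of Hox, a cluster letter from a to d and a number. This rule found 39 of the 32285 genes in the count tables: 11 in the HoxA cluster on chromosome 6, 10 in HoxB on chromosome 11, 9 in HoxC on chromosome 15 and 9 in HoxD on chromosome 2. The rule reads symbols and no levels, though the members were chosen with earlier results of these data known. The tumours were whole prostates of 2 PCSp mice, which carried PB-Cre with the floxed allele Chd1L/L, the mutant SpopF133V and the mTmG reporter, and of 2 PSp mice, which carried PB-Cre, SpopF133V and mTmG without Chd1L/L. Cre, the mutant Spop, the mTmG reporter and a further floxed allele that is not reported here were common to both genotypes and the floxed Chd1 belonged to PCSp alone. All 4 animals were castrated at the age of 9 months and their tumours were taken 1 month later, and no intact mouse or normal prostate was analysed here. PB-Cre uses a probasin promoter, which is active in prostate epithelium, so the floxed alleles are aimed at epithelial cells and not at the stroma. The question set by the design was what loss of Chd1, a chromatin remodeller, changes in Spop-mutant tumours.

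Hox genes encode homeodomain transcription factors that give cells along the body axis their positional identity. They lie in 4 clusters, and members of different clusters that descend from 1 ancestral gene share a number, the paralog group. Low numbers are used towards the head and high numbers towards the tail, and groups 9 to 13 pattern the hindgut and the urogenital tract. Hoxa13, Hoxd13 and Hoxb13 act in growth and branching of the mouse prostate, and Hoxb13, a partner of the androgen receptor, is a known marker of prostate epithelium.

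The libraries were 3' single-cell libraries that count unique molecular identifiers (UMIs), 1 for each captured transcript end. They held 9656 and 9600 cell barcodes in the PCSp mice and 6539 and 7266 in the PSp mice, with 66874620 to 90839725 UMIs a mouse, and 5154 to 7812 cells a mouse were kept after filtering. Pairs of libraries shared between 11 and 27 barcodes. Cells were clustered without any gene of the Hox loci, so no cell type was defined by the genes described, and each name means only that the cells carried the listed markers of that type. UMIs were summed over the cells of a type in a mouse, and levels are these counts scaled to the total UMIs of the sum (CPM, the usual depth-scaled unit). The unit has no term for gene length, and capture may differ between genes, so levels are compared between cell types for 1 gene and as shares of the Hox UMIs. The epithelial class had 12804 cells, fibroblasts 3216, endothelium 720, smooth muscle and pericytes 206 and glia 74. The 10 epithelial markers summed to between 12304 and 14442 CPM in epithelium, against 219 to 404 CPM in fibroblasts and 245 to 405 CPM in endothelium. The Chd1 mRNA was at 59.7 and 56.0 CPM in PCSp epithelium, against 91.2 and 78.0 CPM in PSp epithelium (log2 fold change −0.57 ± 0.10 SE, edgeR adjusted p = 0.405). The labels do not place the deleted part of Chd1, and 3' counts from outside it would check nothing.

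Of the 39 genes, 27 reached a mean of at least 10 CPM in some cell type, 8 of them in HoxA, 9 in HoxB, 4 in HoxC and 6 in HoxD. The other 12 held 1293 of the 85917 Hox UMIs, which is 1.5%, and Hoxc12 and Hoxc13 had no UMI. The 10 others of these 12 had highest means from 0.249 CPM for Hoxb1 to 6.97 CPM for Hoxc8. For 15 of the 39 genes another gene is annotated on the same strand of the same stretch, none of these 15 in HoxB, and reads from such pairs may not be told apart; the 15 include Hoxa9, Hoxc9, Hoxc10, Hoxd4, Hoxd10 and Hoxd11.

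**Figure D1:**
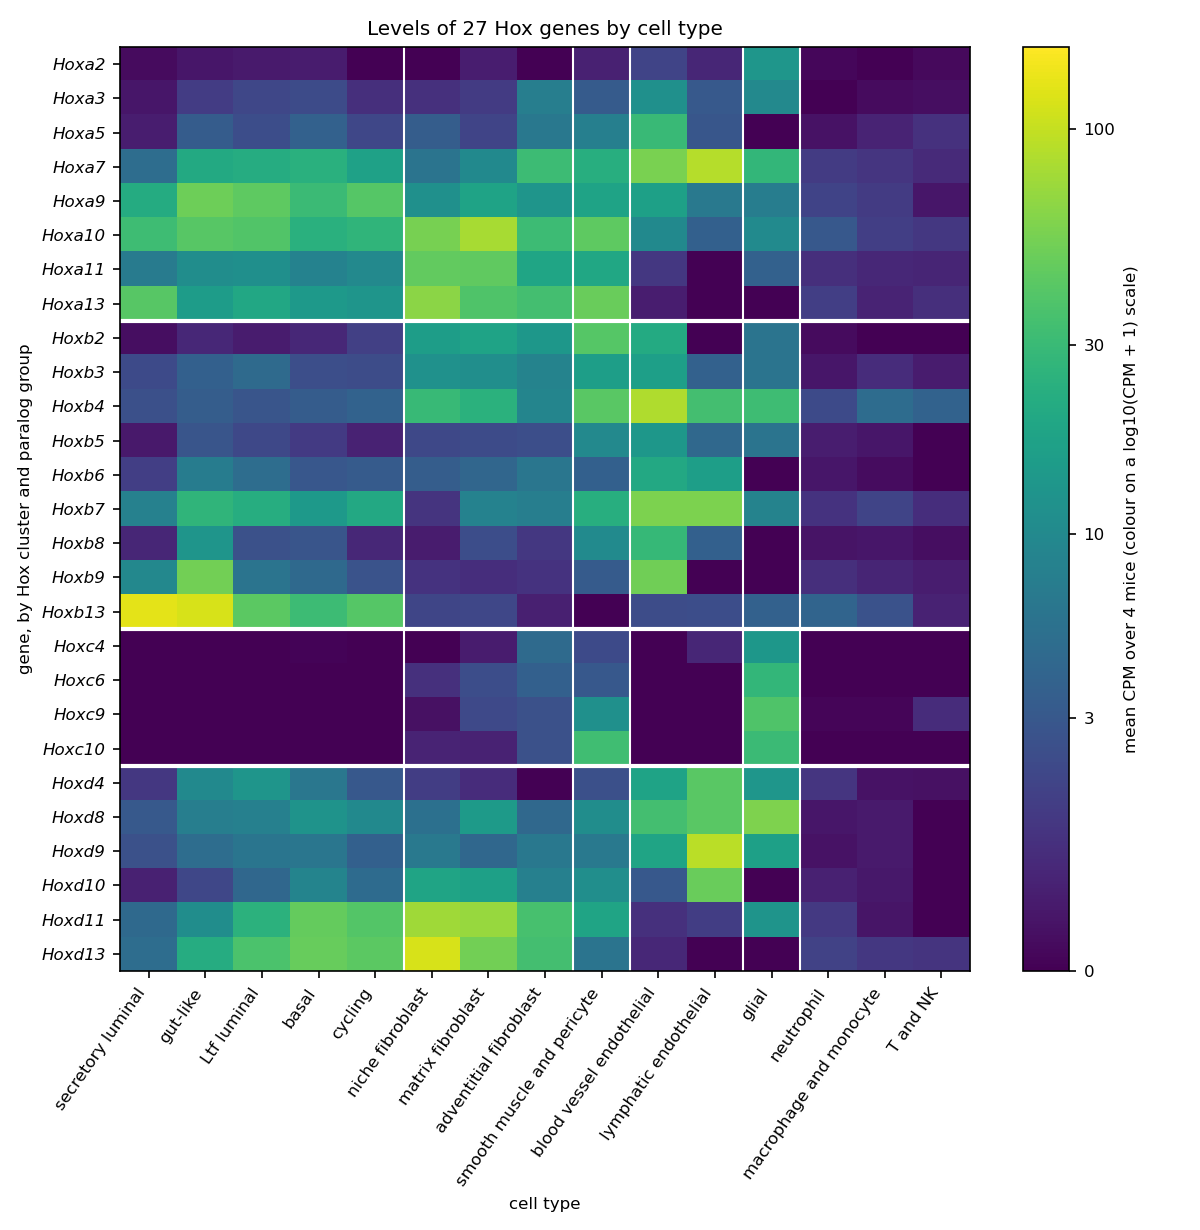
Mean level over 4 mice (CPM, colour on a log10 scale of CPM + 1) of the 27 Hox genes that reached 10 CPM, with genes down the page by cluster and paralog group and cell types across. Hoxb13 is bright in the epithelial columns alone, Hoxd13 and Hoxa13 in niche fibroblasts, and Hoxb4 in blood vessel endothelium.

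Among epithelium, fibroblasts and endothelium, the summed Hox level was highest in endothelium, and the members behind it differed by class. It was 339.5 ± 11.1 CPM in epithelium, 370.2 ± 14.9 CPM in fibroblasts and 505 ± 16.5 CPM in endothelium (SD, n = 4 mice each). Immune cells gave 14.8 to 25.4 CPM and were set beside these classes as cell types for free RNA in the droplets. Hoxb4 gave 26.8% of the Hox UMIs in T and NK cells and 23.1% in macrophages and monocytes. Over all cells together it gave 1609 of the 85917. How much of the immune level was free RNA and how much the cells' own was not tested. Paralog groups 9 to 13 supplied 75.5% of the Hox UMIs in epithelium (73.9 to 77.5% over the mice) and 69.2% in fibroblasts (68.3 to 70.2%), but 23.0% in endothelium (17.9 to 25.4%). The ranges of endothelium and of the other 2 classes did not overlap. HoxB genes gave 52.7% of the endothelial Hox UMIs, against 33.8% of the epithelial and 17.4% of the fibroblast ones. HoxC genes gave 4.40% in fibroblasts, 0.0878% in epithelium and 0.0737% in endothelium.

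**Figure D2:**
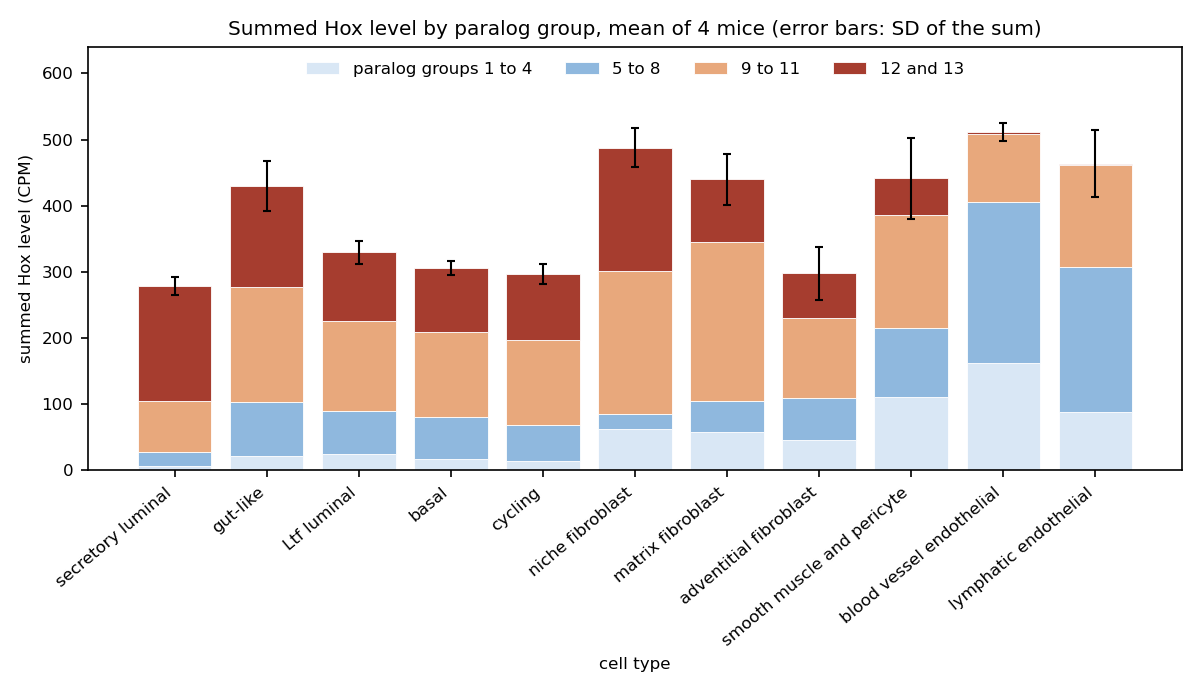
Summed Hox level (CPM, mean of 4 mice, error bars the SD of the sum) in 11 cell types, each bar split into paralog groups 1 to 4, 5 to 8, 9 to 11 and 12 and 13. Groups 12 and 13 fill 62.7% of the secretory luminal bar and 38.1% of the niche fibroblast bar, and both endothelial bars are mostly groups 1 to 8.

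Endothelium was set against epithelium by an edgeR quasi-likelihood test over all genes, with the mouse as a block and Benjamini-Hochberg adjustment at 0.05. Of the 27 Hox genes tested, 17 were higher in endothelium and 8 lower, 25 in all; of all 14696 genes tested, 61.4% passed, 26% higher and 35.3% lower. The median log2 fold change was 1.47 over the Hox genes tested and −0.16 over all genes. All 17 higher genes belong to paralog groups 2 to 9, and 7 of the 8 lower ones to groups 10 to 13, the exception being Hoxa9.

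Hoxb4, which in blood-forming cells is known for promoting the growth of stem cells, was at 84.7, 67.5, 86.0 and 60.2 CPM in the endothelium of PCSp mice 1 and 2 and PSp mice 1 and 2. In the epithelium of the same mice it was at 3.33, 3.17, 3.70 and 3.05 CPM. Every endothelial value lay above every epithelial one, the log2 fold change was 4.28 ± 0.15 (SE), and the edgeR adjusted p was 1.3e-12. Macrophages and monocytes, the immune class with the highest Hoxb4, had a mean of 5.02 CPM, more than epithelium. Whether the Hoxb4 counts of either class were free RNA was not tested. After thinning every cell to 2000 UMIs, 10.1% of endothelial cells, 0.978% of epithelial cells and 0.419% of neutrophils had a Hoxb4 UMI. Unthinned, the share was 23.5% of endothelial cells at a median of 3594 UMIs a cell. Hoxb2, at 17.2 ± 6.01 CPM in endothelium and 0.620 ± 0.033 CPM in epithelium, had the largest rise of the Hox genes tested (log2 fold change 4.52 ± 0.37, edgeR adjusted p = 3.6e-08).

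Hoxd13, Hoxa13 and Hoxd12 were at or near 0 in endothelium. Hoxd13 had 3 UMIs and Hoxa13 had 2 UMIs in all the endothelial cells together, against mean levels of 32.3 and 19.7 CPM in epithelium, and Hoxd12 had none, which allows 0.693 CPM over the endothelium. Each of these 3 passed the test as lower. Hoxb13 averaged 2.30 ± 2.10 CPM in endothelium and 62.4 ± 14.9 CPM in epithelium (log2 fold change −5.02 ± 0.28, edgeR adjusted p = 2.6e-10), and neutrophils had 4.07 ± 1.34 CPM, more than endothelium. Hoxd11 averaged 1.20 CPM in endothelium and 26.0 CPM in epithelium (log2 fold change −4.65 ± 0.32). Hoxd10 and Hoxa2 did not pass, with log2 fold changes of 0.79 ± 0.36 and 1.48 ± 0.70. Hoxd3 did not pass without PSp mouse 1 and Hoxa6 did not without PSp mouse 2.

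Fibroblasts were higher than the same endothelial samples in 6 genes of groups 10 to 13. Of 21 Hox genes tested, 6 were higher in fibroblasts and 12 lower, 18 in all, where 53.7% of all genes passed, 28% higher and 25.8% lower. The median log2 fold change was −1.57 over the Hox genes tested and 0.04 over all genes. The 6 higher genes were Hoxa10, Hoxa11, Hoxa13, Hoxd10, Hoxd11 and Hoxd13, all of paralog groups 10 to 13. No HoxC gene passed the filter on low counts in this comparison; with no filter 12 were higher, the others being Hoxc4, Hoxc6, Hoxc9, Hoxc10, Hoxc11 and Hoxd12. Hoxd11 was at 49.1, 54.5, 47.8 and 53.9 CPM in the fibroblasts of PCSp mice 1 and 2 and PSp mice 1 and 2, against 0.694, 1.47, 1.02 and 1.63 CPM in endothelium. The groups lay far apart, with a log2 fold change of 5.57 ± 0.28 (edgeR adjusted p = 4.1e-10). The 12 lower genes were of groups 3 to 9, led by Hoxb9 (log2 fold change −4.71 ± 0.29) and Hoxd4 (−3.94 ± 0.33). Hoxd10 passed narrowly (log2 fold change 0.72 ± 0.28, edgeR adjusted p = 0.043) and did not pass without PCSp mouse 1, PSp mouse 1 or PSp mouse 2; Hoxa3 did not without PSp mouse 1.

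**Figure D3:**
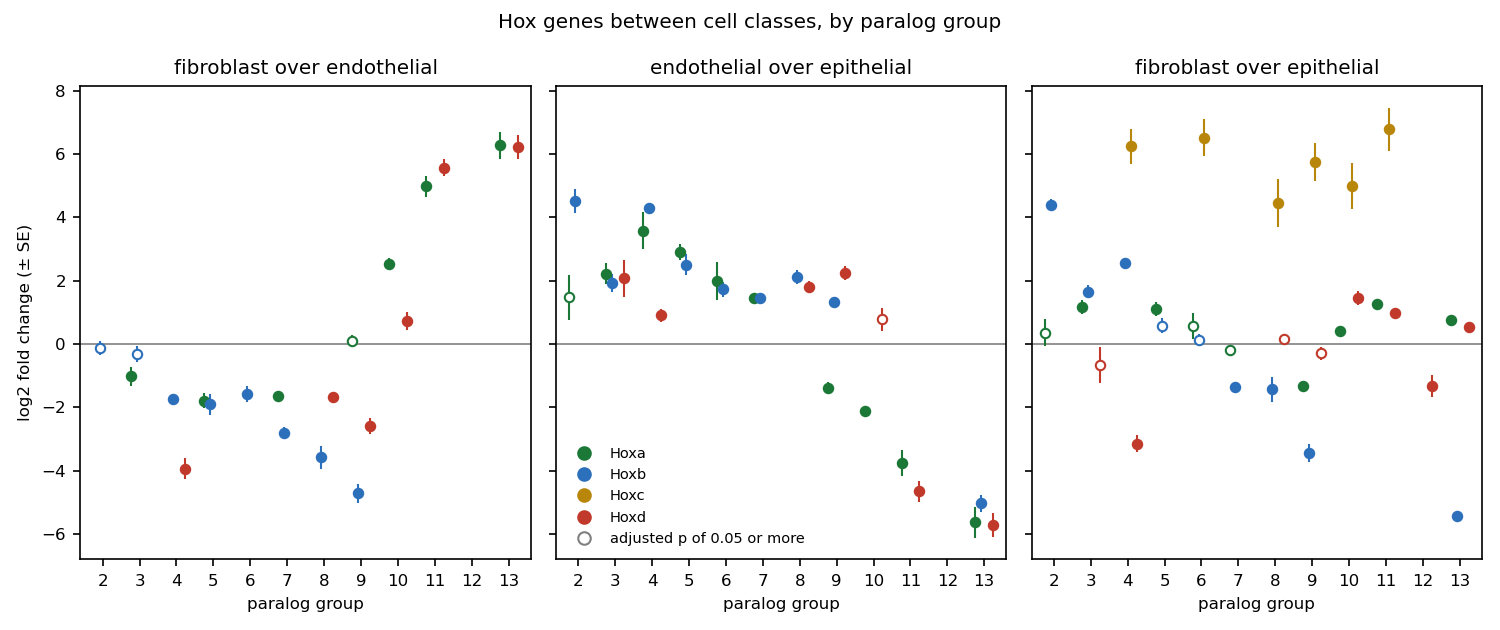
Log2 fold change (± SE) of the tested Hox genes of paralog groups 2 to 13 for fibroblasts over endothelium, endothelium over epithelium and fibroblasts over epithelium, coloured by cluster, open where the adjusted p was 0.05 or more. Hoxd12, with no endothelial UMI, is left out of the middle panel; there the genes of groups 2 to 8 lie above 0 and Hoxa10, Hoxa11, Hoxa13, Hoxb13, Hoxd11 and Hoxd13 below it.

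Fibroblasts and epithelium both had most of their Hox UMIs from groups 9 to 13, and differed in which genes gave them. These 2 classes were compared with samples that also entered the comparisons above. Of 33 Hox genes tested, 18 were higher in fibroblasts and 7 lower, 25 in all, where 74.1% of all genes passed, 35.8% higher and 38.3% lower. The Hox genes tested had a median log2 fold change of 0.58, and all genes one of −0.05. Hoxb13 averaged 1.46 ± 0.665 CPM in fibroblasts, no more than in neutrophils, and 62.4 ± 14.9 CPM in epithelium (log2 fold change −5.43 ± 0.16, edgeR adjusted p = 1.0e-09). Its group 13 paralogs went the other way by smaller amounts. Hoxa13 averaged 34.3 ± 3.90 CPM in fibroblasts and 19.7 CPM in epithelium (log2 fold change 0.76 ± 0.09), and Hoxd13 47.3 ± 8.73 CPM in fibroblasts and 32.3 CPM in epithelium (0.52 ± 0.12). Besides Hoxb13, the lower genes were Hoxa9, Hoxb7, Hoxb8, Hoxb9, Hoxd4 and Hoxd12, with Hoxb9 at a log2 fold change of −3.43 ± 0.29 and Hoxd4 at −3.15 ± 0.26.

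All 6 HoxC genes that were tested were higher in the whole fibroblast class than in epithelium. The named fibroblast types did not share this evenly. Hoxc4 averaged 3.11 CPM in the class, but 0 CPM in niche, 0.480 CPM in matrix and 4.72 CPM in adventitial fibroblasts. Hoxc10 averaged 2.68 CPM in the class, 0.642 CPM in niche, 0.615 CPM in matrix and 2.54 CPM in adventitial fibroblasts. The part of the unnamed fibroblast sub-clusters was not tested. Hoxc6 averaged 3.51 ± 1.43 CPM in fibroblasts, from 68 UMIs, and 0.0342 CPM in epithelium, from 8 UMIs (log2 fold change 6.52 ± 0.59, edgeR adjusted p = 4.4e-06). Hoxc4, Hoxc9, Hoxc10 and Hoxc8 had log2 fold changes from 4.45 ± 0.75 for Hoxc8 to 6.24 ± 0.55 for Hoxc4. Hoxc11 had 33 UMIs in fibroblasts and 3 in epithelium. Over the whole fibroblast class no mean of a HoxC gene was above 3.82 CPM, the level of Hoxc9. The immune classes held no UMI of Hoxc4 or Hoxc6 and 6 of Hoxc9. Hoxb2 was also higher in fibroblasts, at 13.5 CPM, against 0.620 CPM in epithelium (log2 fold change 4.39 ± 0.20, edgeR adjusted p = 2.0e-08).

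The smooth muscle and pericyte cells, set against the same fibroblast samples, had 4 Hox genes higher and 2 lower of 15 tested, 6 in all, where 22.7% of all genes passed, 10.5% higher and 12.2% lower. The median log2 fold change was 0.03 over the Hox genes tested and −0.03 over all genes. Hoxb2 was at 38.7, 54.6, 32.5 and 37.1 CPM in the smooth muscle and pericyte cells of PCSp mice 1 and 2 and PSp mice 1 and 2. It averaged 13.5 CPM in fibroblasts (log2 fold change 1.40 ± 0.31, edgeR adjusted p = 0.0025). Hoxd13 averaged 5.98 CPM in smooth muscle and pericytes and 47.3 CPM in fibroblasts (log2 fold change −3.03 ± 0.41, edgeR adjusted p = 2.5e-05), and Hoxd11 averaged 18.4 CPM in smooth muscle and pericytes and 51.3 CPM in fibroblasts (−1.72 ± 0.33). Hoxa13 did not follow Hoxd13: it was at 26.6, 74.5, 21.7 and 74.1 CPM in these cells and averaged 34.3 CPM in fibroblasts (log2 fold change 0.20 ± 0.32). Hoxb4, Hoxb7 and Hoxb8 were higher as well, but each lost its call without at least 2 of the 4 mice in turn, and without PCSp mouse 1 Hoxb2 alone of the 4 passed. The cells numbered 34 to 75 a mouse. Hoxc10 was at 31.4 and 94.0 CPM in the first mouse of PCSp and of PSp and at 0 and 4.12 CPM in the second, so its mean of 32.4 CPM rests on 2 mice. The class's own 10 markers split the mice in the same way, at 10714, 22060, 12031 and 20029 CPM in PCSp mice 1 and 2 and PSp mice 1 and 2, and so did macrophage markers, at 1847, 467, 2634 and 848 CPM. The 8 glial markers, of cells in which HoxC genes were also high, were at 263, 9.93, 369 and 49.4 CPM. The part of these in the values of Hoxa13 and Hoxc10 was not tested.

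The starts of 3 of these genes are shown because they stand for the 2 ends of the pattern: Hoxd13 and Hoxa13, posterior genes low in endothelium, and Hoxb4, high there. Each is the RefSeq sequence of build GRCm38.p6 on the gene's strand, from 250 bases before to 50 bases after the transcript start. The Hoxd13 promoter is chr2:74667975-74668274 (+ strand), Hoxa13 is chr6:52260831-52261130 (− strand) and Hoxb4 is chr11:96318017-96318316 (+ strand). Capitals mark a TATAAA, read here on both strands where the 2 matches overlap.
Hoxd13: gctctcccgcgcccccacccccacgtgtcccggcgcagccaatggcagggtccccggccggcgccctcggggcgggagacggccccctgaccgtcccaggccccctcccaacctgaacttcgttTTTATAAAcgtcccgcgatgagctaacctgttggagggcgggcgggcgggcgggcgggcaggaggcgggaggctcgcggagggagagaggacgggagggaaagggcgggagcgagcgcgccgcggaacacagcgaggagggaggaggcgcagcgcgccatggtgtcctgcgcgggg
Hoxa13: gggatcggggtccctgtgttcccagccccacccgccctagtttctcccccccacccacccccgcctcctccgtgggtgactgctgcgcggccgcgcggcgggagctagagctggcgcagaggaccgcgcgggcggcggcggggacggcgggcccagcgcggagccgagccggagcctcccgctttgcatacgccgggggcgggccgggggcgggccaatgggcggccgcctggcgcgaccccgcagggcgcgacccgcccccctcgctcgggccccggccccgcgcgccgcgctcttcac
Hoxb4: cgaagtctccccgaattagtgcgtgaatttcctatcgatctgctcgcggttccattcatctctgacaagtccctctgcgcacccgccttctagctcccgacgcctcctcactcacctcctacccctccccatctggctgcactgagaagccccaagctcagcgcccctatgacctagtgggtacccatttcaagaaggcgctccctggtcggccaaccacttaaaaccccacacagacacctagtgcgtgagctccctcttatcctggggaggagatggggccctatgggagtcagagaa

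The Hoxd13 stretch is 74.3% G and C with 37 CG pairs, the Hoxa13 stretch 81.0% with 45, and the Hoxb4 stretch 58.0% with 14. The promoter table matched 22 of the 39 Hox genes with 24 promoters of 300 bases, whose median was 14.5 CG pairs, against 7 over all 32851 promoters. TATAAA, searched on both strands, was in 4 of the 24 Hox promoters (Hoxa10, Hoxb8, Hoxd4 and Hoxd13) and in 13.6% of all promoters. CCAATAAA, a homeodomain recognition sequence of posterior Hox proteins, was in 1 (Hoxd4) and in 1.12% of all, and TGATTNAT, a composite site of Hox and Pbx proteins, was in 2 (Hoxa2 and Hoxd11) and in 3.22% of all. CCAAT, which overlaps the first of these, was in 15 and in 37.4% of all.

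Within the epithelium, Hoxb13 was detected in every named state, at levels that differed between them. It was at 155, 111, 96.2 and 145 CPM in the secretory luminal cells of PCSp mice 1 and 2 and PSp mice 1 and 2, and at 127, 87.2, 104 and 141 CPM in the gut-like cells. These 2 ranges overlap and lie above those of all other named states. The Ltf luminal cells had 37.2 to 45.8 CPM, the basal cells 27.1 to 35.2 CPM and the cycling cells 30.1 to 54.9 CPM, and the cycling range overlapped both others. After thinning to 2000 UMIs a cell, 21.4% of secretory luminal cells had a Hoxb13 UMI, 14.2% of gut-like, 9.38% of Ltf luminal and 6.68% of basal cells, against 0.778% of neutrophils and 0.189% of fibroblasts. Unthinned, 82.1% of secretory luminal cells had one, at a median of 29719 UMIs a cell, and 0.882% of neutrophils, at a median of 2148.

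**Figure D4:**
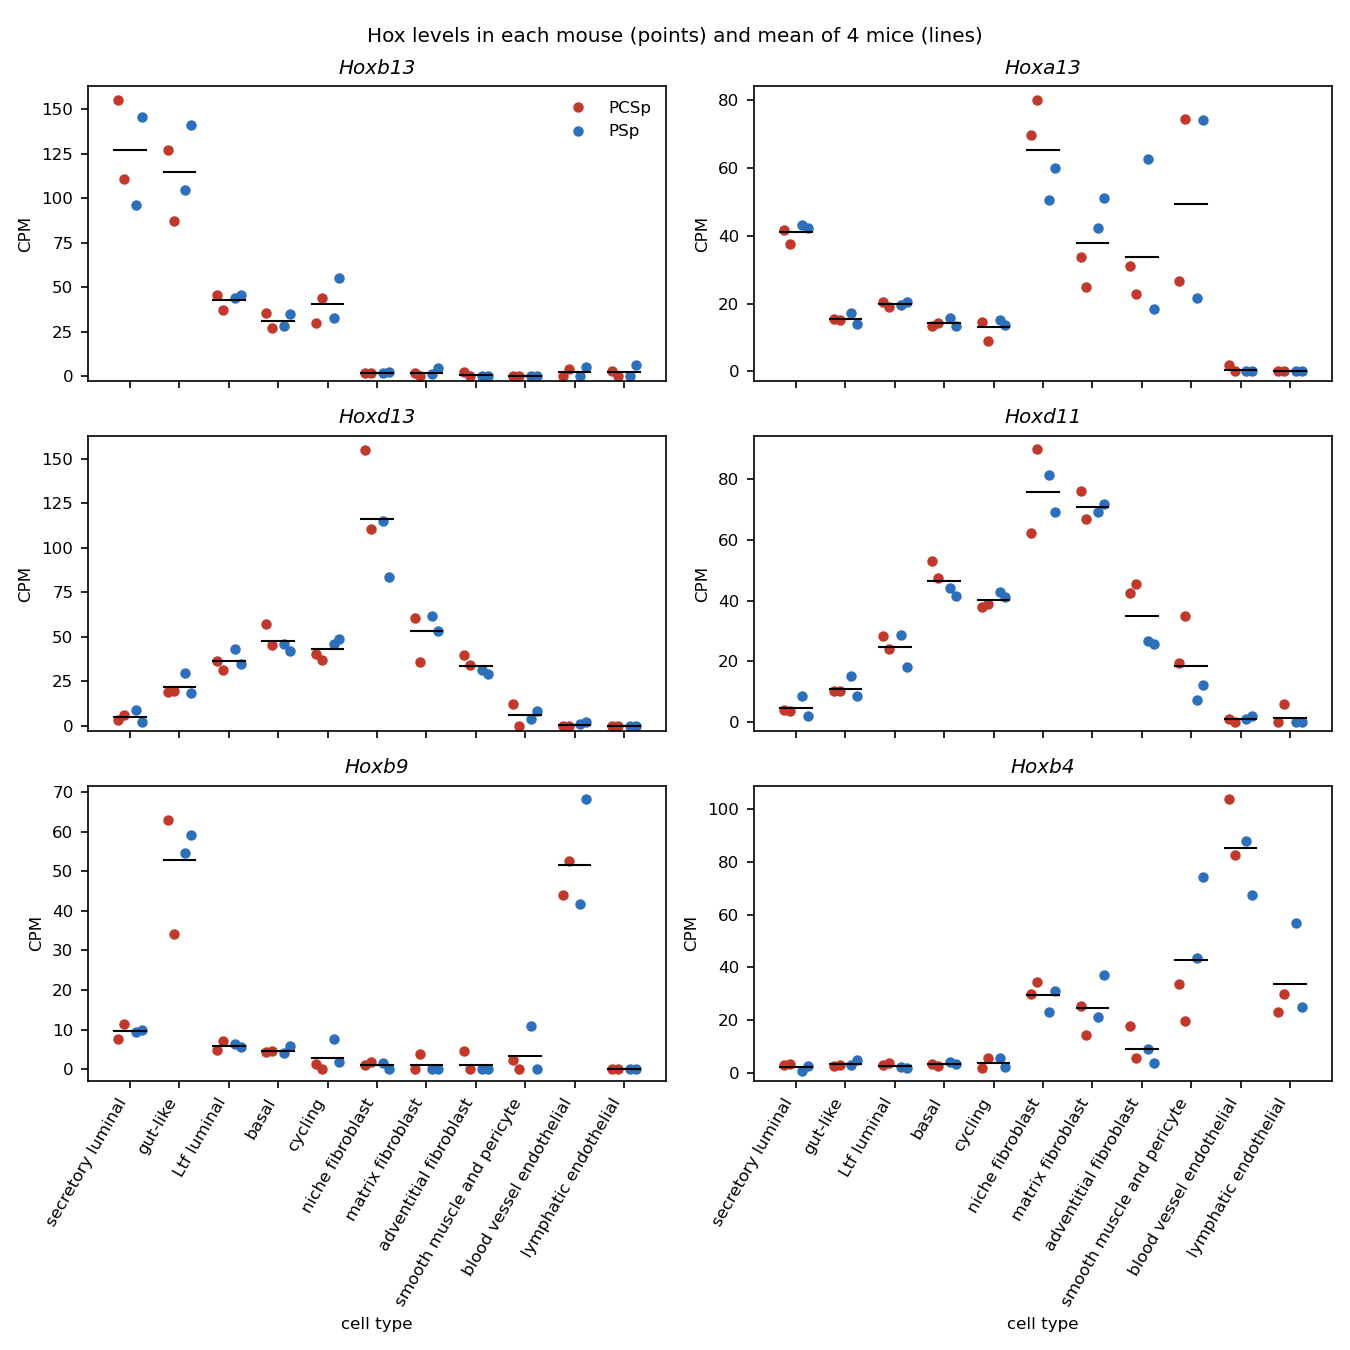
Level (CPM) of Hoxb13, Hoxa13, Hoxd13, Hoxd11, Hoxb9 and Hoxb4 in each mouse (points, PCSp left of PSp) and the mean of 4 mice (lines) in 11 cell types. Hoxb13 is highest in secretory luminal and gut-like cells, Hoxd13 in niche fibroblasts at 83.7 to 155 CPM, and Hoxb9 in gut-like cells and blood vessel endothelium.

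Each state was tested against the sum of the other named states, with the mouse as a block, so the 5 comparisons share cells. A gene high in 1 state raises the sum that each other state is set against. Cells of the unnamed sub-clusters, among them 2616, 1714 and 1037 of the 12804 epithelial cells, were on neither side of these tests. The secretory luminal state had 2 Hox genes higher and 17 lower of 24 tested, 19 in all, where 41.7% of all genes passed, 19.4% higher and 22.3% lower. The Hox genes tested had a median log2 fold change of −1.70, and all genes one of −0.01. The 2 higher genes were both of paralog group 13. Hoxb13 averaged 127 ± 27.9 CPM in this state and 50.3 CPM in the others (log2 fold change 1.31 ± 0.07, edgeR adjusted p = 1.4e-06). Hoxa13 was at 41.7, 37.7, 43.1 and 42.2 CPM in the 4 mice and averaged 16.3 CPM in the other states (log2 fold change 1.33 ± 0.08, edgeR adjusted p = 2.5e-06). Hoxb13 alone gave 50.0% of this state's Hox UMIs.

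All 7 HoxD genes tested were lower in the secretory luminal state. Hoxd13, the third group 13 gene, was at 3.06, 6.01, 9.00 and 2.38 CPM there, and averaged 39.1 CPM in the other states (log2 fold change −3.30 ± 0.23, edgeR adjusted p = 6.7e-06). The value in every mouse was below that of each other state. Thinned to 2000 UMIs, 0.585% of secretory luminal cells had a Hoxd13 UMI, against 10.8% of basal cells and 0.210% of neutrophils. Hoxd11 averaged 4.62 ± 2.74 CPM in this state and 32.5 CPM in the others (log2 fold change −3.06 ± 0.21), and Hoxa7 5.09 CPM in this state and 22.4 CPM in the others (−2.29 ± 0.20). The state rests on 176 and 70 cells in the PCSp mice and 51 and 216 in the PSp mice. It was named from Spink5, Piezo2 and Sbp; of its other markers Msmb had no UMI and Pbsn, Tgm4 and Spink1 had 17 UMIs or fewer each. Hoxa11 and Hoxb5 did not pass without PCSp mouse 1, PCSp mouse 2 or PSp mouse 2, nor did Hoxb9 without PCSp mouse 1 or PSp mouse 2.

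The gut-like state was marked by the middle of the HoxB cluster. It had 8 Hox genes higher and 4 lower of 24 tested, 12 in all, where 48.9% of all genes passed, 24.9% higher and 24% lower. The median log2 fold change was 0.33 over the Hox genes tested and 0.00 over all genes. Hoxb9 was at 62.9, 34.2, 54.5 and 59.2 CPM in gut-like cells and averaged 5.65 CPM in the other states (log2 fold change 3.29 ± 0.14, edgeR adjusted p = 4.8e-07). Its neighbour Hoxb8 was at 16.9, 9.78, 12.3 and 13.6 CPM in gut-like cells and averaged 2.29 CPM in the other states (log2 fold change 2.61 ± 0.21, edgeR adjusted p = 1.5e-05). For both genes PCSp mouse 2 was the lowest of the 4 and still above the mean of the others. Hoxb5, Hoxb6, Hoxb7 and Hoxb13 were higher too, with log2 fold changes of 1.03, 1.14, 0.76 and 1.31, and so were Hoxa9 (0.65) and Hoxa10 (0.54). The 4 lower genes were the HoxD genes of groups 10 to 13: Hoxd10 (−1.60), Hoxd11 (−1.52), Hoxd12 (−2.09) and Hoxd13 (−0.73). Leaving out any 1 mouse ended none of these 12 calls. The state was named from Reg1, Reg3g, Lgals4 and Onecut2; Cdx2, the intestinal factor that activates Hox genes and was on its marker list, had no UMI in it.

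Basal cells had the reverse of that balance for part of HoxB and HoxD. They were set against a sum that included the gut-like cells, so the 2 results are not independent. Of 7 HoxD genes tested 5 were higher and 1, Hoxd4, was lower. Among 9 HoxB genes tested 5 were lower, none was higher and 4 were not called. Of 24 Hox genes tested 8 were higher and 9 lower, 17 in all, where 64.1% of all genes passed, 31.7% higher and 32.3% lower. The Hox genes tested had a median log2 fold change of 0.05, and all genes one of 0.00. Hoxd11 was at 52.9, 47.5, 44.0 and 41.5 CPM in basal cells and averaged 18.8 CPM in the other states (log2 fold change 1.44 ± 0.13, edgeR adjusted p = 6.5e-05). Hoxd13 was at 57.5, 45.7, 45.8 and 41.9 CPM and averaged 27.6 CPM in the other states (0.92 ± 0.13). Hoxd8, Hoxd9, Hoxd10, Hoxa3, Hoxa5 and Hoxa7 were the other higher genes, with log2 fold changes from 0.45 for Hoxd9 to 1.58 ± 0.19 for Hoxd10. Hoxb13 averaged 31.2 ± 4.33 CPM in basal cells and 77.2 CPM in the other states (−1.17 ± 0.08), and Hoxb9 4.69 ± 0.732 CPM in basal cells and 18.0 CPM in the others (−1.84 ± 0.12). Without PCSp mouse 1 or PCSp mouse 2, Hoxa3, Hoxa9, Hoxb3, Hoxb7 and Hoxd4 did not pass, which left 5 lower genes in place of 9.

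The fibroblast markers moved with the basal state: all 10 were detected and summed to 719 to 1610 CPM in basal cells, against 26.2 to 39.1 CPM in Ltf luminal cells and 25618 to 26800 CPM in fibroblasts. Dcn gave 683 to 1576 CPM of the basal sum, and Col1a1, which leads in fibroblasts, was at 2.18 to 3.72 CPM. The macrophage markers moved with it as well, all 10 detected, at 1992 to 3457 CPM in basal and 82.4 to 114 CPM in Ltf luminal cells; Apoe gave 1962 to 3427 CPM of the basal sum and no other of the 10 was above 8.82 CPM. The part of either list in the basal result was not tested. Hoxb2, at 13.5 CPM in fibroblasts, averaged 0.751 CPM in basal cells and 0.561 CPM in the other states, and did not pass (log2 fold change 0.51 ± 0.29).

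Ltf luminal and cycling cells were set against the other states in the same way. In Ltf luminal cells 7 Hox genes were higher and 6 lower of 24 tested, 13 in all, where 54.1% of all genes passed, 27% higher and 27.2% lower; the median log2 fold change was 0.09 over the Hox genes tested and 0.00 over all. Hoxd4 averaged 13 ± 4.04 CPM in Ltf luminal cells and 6.40 CPM in the other states (log2 fold change 1.00 ± 0.17, edgeR adjusted p = 0.0017). Hoxd12 averaged 4.75 CPM in Ltf luminal cells and 2.43 CPM in the others (0.95 ± 0.23), and Hoxb9 was the most reduced at −1.44 ± 0.17. The sum set against these cells, like those for basal and cycling cells, held the gut-like cells, whose Hoxb9 averaged 52.7 CPM. In Ltf luminal cells Hoxa5, Hoxb6 and Hoxd10 each lost the call in 3 of the 4 sets that left out a mouse. In cycling cells, of which each mouse had 35 to 49, 3 were higher (Hoxb2, Hoxd11, Hoxd13) and 5 lower (Hoxa13, Hoxb8, Hoxb9, Hoxb13, Hoxd4) of 25 tested, 8 in all, where 45.8% of all genes passed, 21.2% higher and 24.7% lower. The median was −0.23 over the Hox genes tested and −0.09 over all. Hoxd11 had the smallest p of the 3, at 40.1 ± 2.26 CPM in cycling cells and 28.9 CPM in the others (log2 fold change 0.55 ± 0.13, edgeR adjusted p = 0.0028); Hoxb2, Hoxa13 and Hoxd13 lost the call without PSp mouse 2.

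Among fibroblasts, the niche type, named from Hhip, Wif1, Rorb and other signalling genes, had the highest level of Hoxd13 of any named cell type. It was at 155, 111, 115 and 83.7 CPM in the niche fibroblasts of PCSp mice 1 and 2 and PSp mice 1 and 2, and averaged 47.4 CPM in the other named types (log2 fold change 1.43 ± 0.16, edgeR adjusted p = 4.9e-06). Matrix fibroblasts had 36.0 to 62.0 CPM, below every niche value. Thinned to 2000 UMIs, 19.8% of niche cells had a Hoxd13 UMI, 8.96% of matrix cells and none of 524 endothelial cells; unthinned, 40.6% of niche cells had one at a median of 5678 UMIs. Hoxa13 was at 69.8, 80.2, 50.7 and 59.9 CPM in niche fibroblasts and averaged 35.7 CPM in the other types (log2 fold change 1.03 ± 0.22, edgeR adjusted p = 0.0020). Of 11 Hox genes tested 3 were higher (Hoxa13, Hoxb4, Hoxd13) and 1 lower (Hoxa7), 4 in all, where 31.3% of all genes passed, 15.5% higher and 15.8% lower. The median log2 fold change was 0.40 over the Hox genes tested and 0.02 over all. Hoxb4 did not pass without PCSp mouse 1, PCSp mouse 2 or PSp mouse 1, and Hoxa7 did not without PCSp mouse 1 or PSp mouse 2. The named types held 554 niche, 431 matrix and 243 adventitial cells of the 3216 fibroblasts. The other fibroblasts entered neither side of the tests of types.

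The list of 10 macrophage markers moved with the niche type, at 8200 to 9683 CPM in niche, 313 to 684 CPM in matrix and 223 to 479 CPM in adventitial fibroblasts. Apoe gave 8162 to 9630 CPM of the niche sum, Ccr2 was at 0, and C1qb, the next, was at no more than 28.6 CPM. Hoxd13 averaged at most 1.69 CPM in an immune class.

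Adventitial fibroblasts, named from Pi16, Dpp4 and their like, had less of 4 genes of groups 10 to 13 and more Hoxa7. Of 10 Hox genes tested 1 was higher and 5 lower, 6 in all, where 15.6% of all genes passed, 8.12% higher and 7.53% lower, and the median log2 fold change was −0.93 over the Hox genes tested and −0.02 over all. Hoxa7 was at 29.0, 39.8, 26.8 and 29.2 CPM in adventitial fibroblasts and averaged 8.19 CPM in the other named types (log2 fold change 2.05 ± 0.35, edgeR adjusted p = 0.00017). The lower genes were Hoxa10 (−1.01 ± 0.23), Hoxa11 (−1.33 ± 0.35), Hoxb4 (−1.24 ± 0.40), Hoxd11 (−0.85 ± 0.23) and Hoxd13 (−1.09 ± 0.23). Hoxa13 (−0.46 ± 0.28) and Hoxd10 (−1.01 ± 0.41), the other genes of groups 10 to 13 tested, did not pass. Each mouse gave 36 to 83 cells; Hoxa11 lost its call without PCSp mouse 1, Hoxb4 without PCSp mouse 2, PSp mouse 1 or PSp mouse 2, and Hoxd11 without PSp mouse 1 or PSp mouse 2.

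Matrix fibroblasts had the highest Hoxa10 of any named cell type, at 83.7, 74.2, 103 and 60.3 CPM, against a mean of 48.5 CPM in the other named types (log2 fold change 0.61 ± 0.16, edgeR adjusted p = 0.010). Of 11 Hox genes tested this 1 was higher and 2 were lower, Hoxd13 (−0.97 ± 0.16) and Hoxa13 (−0.77 ± 0.19), 3 in all, where 30.8% of all genes passed, 15.7% higher and 15.1% lower. The median was −0.01 over the Hox genes tested and −0.02 over all. Hoxa10 and Hoxa13 did not pass without PCSp mouse 1. The 10 markers of smooth muscle and pericytes moved with the matrix type, all detected and summing to 1890 to 2056 CPM in matrix, 182 to 289 CPM in niche and 139 to 301 CPM in adventitial fibroblasts. Tagln and Acta2 gave most of the matrix sum, at means of 1182 and 562 CPM, and Rgs5 and Higd1b were at 5.12 and 1.16 CPM. The part of these cells in the result was not tested. Hoxa11, which patterns the stroma of the reproductive tract, averaged 45.5 ± 12.4 CPM in niche and 45.2 ± 7.64 CPM in matrix fibroblasts, and did not pass in either type.

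The 2 endothelial types were described without a test, since lymphatic endothelium had only 13 cells in PSp mouse 1. Lymphatic endothelium had 49.8% of its Hox UMIs from HoxD and blood vessel endothelium 58.1% from HoxB. Hoxd9 was at 95.6, 102, 85.4 and 87.3 CPM in the lymphatic endothelium of PCSp mice 1 and 2 and PSp mice 1 and 2, against 22.9, 20.2, 17.1 and 12.8 CPM in blood vessel endothelium. Hoxd10 was at 29.0, 42.0, 56.9 and 68.6 CPM in the lymphatic type, against 0.997 to 6.05 CPM in the blood vessel type. For both genes all lymphatic values lay above all blood vessel ones, but those of PSp mouse 1 rest on 3 UMIs of Hoxd9 and 2 of Hoxd10. Hoxa7 was also higher in each lymphatic sum, at 72.4, 90.0, 85.4 and 112 CPM, against 60.8, 40.3, 65.2 and 58.3 CPM.

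Hoxb9 and Hoxb2 had no UMI in lymphatic endothelium, which allows up to 4.24 CPM over its 156 cells. In blood vessel endothelium Hoxb9 was at 43.9, 52.4, 41.7 and 68.2 CPM and Hoxb2 at 12.8 to 32.3 CPM. Markers of smooth muscle and pericytes, the cells with the highest Hoxb2, summed to 521 to 1178 CPM in blood vessel endothelium, with 8 of 10 detected and Cnn1 and Actg2 at 0, and to 93.6 to 186 CPM in lymphatic endothelium, with 5 of 10 detected. Their part in these differences was not tested. Hoxb4 was at 104, 82.7, 87.7 and 67.2 CPM in the blood vessel type, against 23.2, 30.0, 56.9 and 25.0 CPM in the lymphatic type, with no overlap. Hoxb7 did not separate them, averaging 57.7 CPM in both. Hoxa5, which lung and vessel development use, was at 18.1 to 38.9 CPM in blood vessel endothelium and had 4 UMIs in the lymphatic type, all in PCSp mouse 1. Hoxa3, Hoxb3, Hoxb5, Hoxb6 and Hoxb8 were highest in blood vessel endothelium, with means from 11.7 CPM for Hoxa3 to 28.6 CPM for Hoxb8. Hoxd4 had its highest mean in lymphatic endothelium, 42.3 ± 29.2 CPM, where PSp mouse 1 with 85.4 CPM stood above the other 3 at 24 to 34.7 CPM.

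Glial cells, 74 in all with 9 to 26 a mouse, had 66 Hox UMIs, too few to test. Of these, 34.7% on average came from HoxC, among them 8 UMIs of Hoxc9, 7 of Hoxc6, 5 of Hoxc10 and 3 of Hoxc4. Hoxc9 was at 45.8, 0, 34.3 and 72.6 CPM in the 4 mice, from 3, 0, 2 and 3 UMIs. Hoxd8 had 9 UMIs, at 0, 106, 103 and 24.2 CPM. Hoxa2 reached its mean of 13.2 CPM from 1 UMI.

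Other genes of positional identity were read from 6 lists and set beside the Hox results in the same fits. Of all genes, 74.1% passed in fibroblasts over epithelium, 61.4% in endothelium over epithelium, 53.7% in fibroblasts over endothelium and 22.7% in smooth muscle and pericytes over fibroblasts, and each list's count stands beside these shares. The list of TALE cofactors held Pbx, Meis and Pknox proteins, which bind DNA with Hox proteins, and also Tgif1, Tgif2 and Pbxip1. Of this list, 8 of 12 tested were higher in fibroblasts over epithelium, Pbxip1 among them, and 1 lower, Tgif1 (median log2 fold change 0.52). There were 3 higher and 7 lower of 11 in endothelium over epithelium (−1.77), and 6 higher and 2 lower of 11 in fibroblasts over endothelium (1.14). The 9 of 12 called in fibroblasts over epithelium are 75%, near the share of all genes. Meis1 averaged 64.4 CPM in fibroblasts and 5.41 CPM in endothelium (3.82 ± 0.23). Tgif1, a TALE repressor, averaged 22.4 CPM in fibroblasts and 215 CPM in epithelium (−3.30 ± 0.10), and Pknox2 16.2 CPM in fibroblasts and 2.29 CPM in epithelium (2.79 ± 0.15). In smooth muscle and pericytes 1 was higher and 4 lower of 11 than in fibroblasts (−0.25), with Meis2 at −1.93 ± 0.20.

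The noncoding and flanking genes of the clusters come next. In fibroblasts over epithelium 10 were higher and 4 lower of 14 tested (median 0.93), in endothelium over epithelium 3 and 2 of 10 (0.25), in fibroblasts over endothelium 1 and 4 of 7 (−0.50), and in smooth muscle and pericytes over fibroblasts 1 and 1 of 6 (0.21). The called genes were 100% of those tested in fibroblasts over epithelium, against 74.1% of all genes, and 50% in endothelium over epithelium, against 61.4%. Hoxa11os, antisense to Hoxa11, averaged 2.57 CPM in endothelium and 50.2 CPM in epithelium (−4.64 ± 0.24), and 59.1 CPM in fibroblasts. The strand setting of the counting is not given in the sources used here. Hotairm1, a noncoding gene of the HoxA cluster, averaged 43.9 CPM in endothelium and 11.9 CPM in epithelium (1.68 ± 0.15). Hoxb3os averaged 4.97 CPM in fibroblasts and 0.311 CPM in epithelium (3.95 ± 0.29), and 40.4 CPM in smooth muscle and pericytes, 2.75 ± 0.39 above fibroblasts on the log2 scale, the cells with the highest Hoxb2. Mtx2 was lower in fibroblasts than in epithelium (−1.38 ± 0.09) and Skap2 lower in fibroblasts than in endothelium (−1.35 ± 0.14).

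Polycomb repressors, which keep Hox clusters silent, went both ways: 5 higher and 8 lower of 19 in fibroblasts over epithelium (median −0.18), 6 and 7 of 19 in endothelium over epithelium (−0.11), 4 and 5 of 18 in fibroblasts over endothelium (0.10) and none of 18 in smooth muscle over fibroblasts (−0.01), where Pcgf2 was among those of smallest p. The 13 of 19 in each comparison with epithelium are 68.4%, near the 74.1% and 61.4% of all genes. Bmi1 averaged 40.4 CPM in endothelium and 15.2 CPM in epithelium (1.22 ± 0.15), and Phc2 78.1 CPM in endothelium and 35.6 CPM in epithelium (0.93 ± 0.11). Cbx7 and Phf1 were higher in fibroblasts than in epithelium, by 1.46 ± 0.11 and 0.99 ± 0.09 on the log2 scale. Trithorax and other activators had 4 higher and 6 lower of 12 (−0.17), 6 and 3 of 12 (0.23), 2 and 4 of 12 (−0.18) and 1 and 0 of 12 (−0.07) in the same 4 comparisons, or 83.3%, 75%, 50% and 8.33% of those tested. Dot1l was lower in fibroblasts (−1.45 ± 0.12) and in endothelium (−0.79 ± 0.13) than in epithelium, and Psip1 higher in fibroblasts than in epithelium (1.14 ± 0.07).

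The next list held other patterning factors. In fibroblasts over epithelium 11 were higher and 3 lower of 15 (median 6.03), in endothelium over epithelium 2 and 5 of 8 (−2.04), in fibroblasts over endothelium 6 and 1 of 10 (2.36), and in smooth muscle and pericytes over fibroblasts 2 and 0 of 6 (0.72). The called genes were 93.3% of those tested in fibroblasts over epithelium, 87.5% in endothelium over epithelium, 70% in fibroblasts over endothelium and 33.3% in smooth muscle and pericytes over fibroblasts, against 74.1%, 61.4%, 53.7% and 22.7% of all genes. Isl1, a factor of limb and genital mesenchyme, averaged 88.2 CPM in fibroblasts and 0.783 CPM in epithelium (6.77 ± 0.12). Foxa1, a pioneer factor of prostate epithelium, averaged 3.40 CPM in endothelium and 137 CPM in epithelium (−5.44 ± 0.18), and Meox2 46.9 CPM in endothelium and 0.0414 CPM in epithelium (9.82 ± 0.37). Barx2 was lower in fibroblasts than in epithelium (−5.16 ± 0.14), and Tbx2 and Tbx3 higher in smooth muscle and pericytes than in fibroblasts (2.39 ± 0.24 and 0.81 ± 0.20).

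Genes of retinoic acid, an inducer of Hox clusters in embryos, had 7 higher and 2 lower of 15 in fibroblasts over epithelium (median 0.63), 3 and 6 of 14 in endothelium over epithelium (−0.38), 7 and 2 of 12 in fibroblasts over endothelium (1.15) and 1 and 7 of 12 in smooth muscle and pericytes over fibroblasts (−1.44). The called share was 60%, below the 74.1% of all genes, in fibroblasts over epithelium, 64.3% in endothelium over epithelium, 75% in fibroblasts over endothelium and 66.7% in smooth muscle and pericytes over fibroblasts. Aldh1a2, a retinoic acid synthase, averaged 43.9 CPM in fibroblasts and 0.423 CPM in epithelium (6.64 ± 0.32). Rdh10 and Aldh1a3 were lower in endothelium than in epithelium (−2.80 ± 0.13 and −4.73 ± 0.25).

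Between the genotypes, no Hox gene passed in any of the 12 cell types tested, by edgeR or by DESeq2. Of all genes, 0% passed in the epithelial, fibroblast, endothelial, matrix fibroblast and smooth muscle and pericyte sums. The share was 0.165% in Ltf luminal, 0.228% in basal, 0.0331% in cycling, 0.345% in gut-like, 0.00906% in secretory luminal, 0.668% in adventitial and 0.15% in niche cells. With 2 mice a genotype, and no label that says more of how the 4 tumours relate, p-values measure the spread between these animals. At an unadjusted p under 0.05 there were 1 of 27 Hox genes in epithelium, 1 of 22 in fibroblasts and 2 of 17 in endothelium, where 7.78%, 3.93% and 6.62% of all genes passed. In the states and types there were 2 of 22 in Ltf luminal (11.1% of all genes), 1 of 25 in basal (12.9%), 1 of 20 in gut-like (8.89%), 1 of 10 in niche (7.19%), and none of 10 in cycling (4.64%), 14 in secretory luminal (6.08%), 3 in adventitial (7.24%), 11 in matrix (4.92%) and 3 in smooth muscle and pericyte cells (2.07%).

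**Figure D5:**
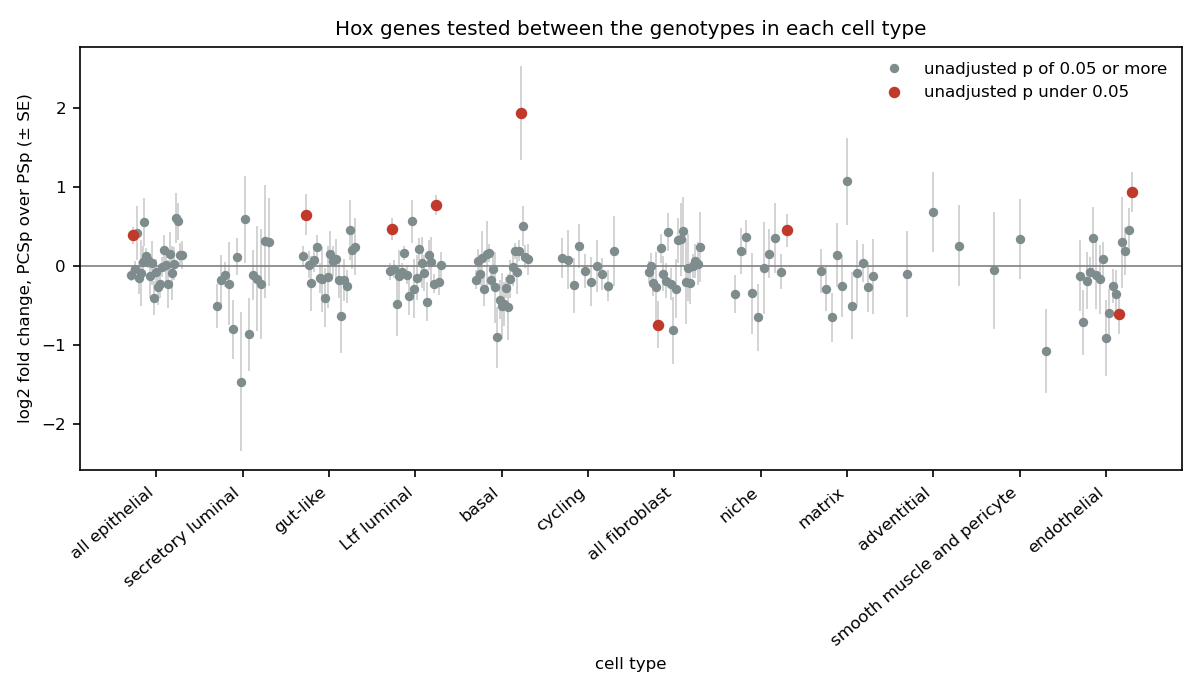
Log2 fold change of PCSp over PSp (± SE) for every Hox gene tested in 12 cell types, in red where the unadjusted p was under 0.05. The points scatter to both sides of 0 in most types, and none has an adjusted p under 0.05.

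In epithelium the 2 Hox genes of smallest p were Hoxa11 and Hoxd4. Hoxa11 was at 12 and 13 CPM in PCSp, against 9.51 and 9.34 CPM in PSp epithelium (log2 fold change 0.39 ± 0.10, edgeR adjusted p = 0.493). Hoxd4 was at 9.43 and 12.7 CPM in PCSp, against 8.78 and 6.01 CPM in PSp (0.57 ± 0.24, adjusted p = 0.658). In Ltf luminal cells Hoxd4 was at 16.9 and 16.1 CPM in PCSp, against 9.93 and 9.15 CPM in PSp (0.78 ± 0.13, adjusted p = 0.113). The genotypes did not overlap for these, and the differences did not pass. Hoxd4 in Ltf luminal cells did pass with no filter on low counts (adjusted p = 9.68e-05), where 1 of 30 Hox genes and 3.11% of all genes passed.

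Hoxb13 was at 70.7 and 49.7 CPM in PCSp epithelium, against 49.9 and 79.3 CPM in PSp epithelium, so that the genotypes overlapped (log2 fold change −0.13 ± 0.28, adjusted p = 0.933). The number of secretory luminal cells, the state with the most Hoxb13, was 176 and 70 in the PCSp mice and 51 and 216 in the PSp mice, and the gut-like cells had 127 and 87.2 CPM of Hoxb13 in PCSp, against 104 and 141 CPM in PSp. The part of these in the sum was not tested. Hoxa13 and Hoxd13 had log2 fold changes of −0.04 ± 0.10 and 0.03 ± 0.21 in epithelium.

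In endothelium Hoxd9 was at 41.6 and 41.1 CPM in PCSp, against 19.5 and 22.8 CPM in PSp (0.94 ± 0.25, adjusted p = 0.511). Lymphatic cells, where Hoxd9 was highest, numbered 13 to 74 a mouse, with 13 in PSp mouse 1. Within blood vessel endothelium Hoxd9 was at 22.9 and 20.2 CPM in PCSp, against 17.1 and 12.8 CPM in PSp. The part of the lymphatic cells in the endothelial difference was not tested. Hoxb9 was next, at −0.60 ± 0.26 (adjusted p = 0.726). In fibroblasts Hoxa5 and Hoxb5 had log2 fold changes of −0.74 ± 0.30 and −0.81 ± 0.43 (adjusted p = 0.998 for both). In niche fibroblasts they were Hoxd13 at 0.46 ± 0.21 (adjusted p = 0.656) and Hoxa13 at 0.36 ± 0.23 (adjusted p = 0.784).

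The pairs of smallest p in the other types were Hoxd3 (1.94 ± 0.59, at 0.901 and 1.13 CPM in PCSp against 0.152 and 0.388 CPM in PSp) and Hoxb3 (−0.90 ± 0.39) in basal cells. They were Hoxa11 (0.65 ± 0.26) and Hoxa9 (0.25 ± 0.14) in gut-like cells, Hoxa9 (−0.80 ± 0.37) and Hoxb7 (−0.86 ± 0.46) in secretory luminal cells, and Hoxd13 (−0.25 ± 0.20) and Hoxa7 (0.25 ± 0.28) in cycling cells. In the stroma they were Hoxa13 (−0.65 ± 0.31) and Hoxb3 (1.07 ± 0.55) in matrix fibroblasts, Hoxd11 (0.68 ± 0.50) and Hoxd13 (0.26 ± 0.51) in adventitial fibroblasts, and Hoxb4 (−1.08 ± 0.54) and Hoxb2 (0.34 ± 0.50) in smooth muscle and pericytes. In Ltf luminal cells the second was Hoxa11 (0.47 ± 0.14). Without PSp mouse 2, which left 1 PSp mouse assumed to vary like the PCSp mice, Hoxa9 passed in secretory luminal cells (−1.25, edgeR adjusted p = 0.0387), and so did 1 Hox gene, Hoxc10, in smooth muscle and pericytes, where it had not been tested with all mice. In these fits 3.87% of all genes passed in secretory luminal cells and 1.29% in smooth muscle and pericytes.

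The change with genotype was also compared between epithelium and fibroblasts in 1 fit. No Hox gene of 33 passed by edgeR or by DESeq2, where 0.0666% of all genes did, and 4 (Hoxb3, Hoxc6, Hoxc9 and Hoxc10) had an unadjusted p under 0.05, where 4.96% of all genes did. The smallest was for Hoxc10, whose change in epithelium was 4.03 ± 1.38 below that in fibroblasts on the log2 scale (adjusted p = 0.731), from 22 epithelial UMIs. Without PSp mouse 1 its adjusted p was 0.0296, where 1.45% of all genes passed. None of the genes of the 6 lists passed between the genotypes in epithelium, fibroblasts or endothelium; in epithelium the genes of smallest p in the lists included Tgif2 (0.38 ± 0.12) and Meis3 (−0.40 ± 0.13), Pcgf2 (−0.22 ± 0.10) and Kdm2b (0.14 ± 0.09), Kmt2a (0.30 ± 0.08) and Kmt2b (0.25 ± 0.08), Hottip (0.52 ± 0.33) and Smug1 (−0.22 ± 0.14), Foxa2 (2.42 ± 0.42) and Emx2 (−1.55 ± 0.56), and Aldh1a2 (1.65 ± 0.50).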

How the data were processed

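Whole prostate tumours of 4 castrated mice, 2 PCSp and 2 PSp, were profiled by 10x 3' single-cell sequencing. The authors deposited, for each mouse, raw UMI counts for 32285 genes and the called barcodes; Cell Ranger 6.1.2 and mm10 are named in the submitters' processing notes, and the strand and intron settings are not given in the sources used here.

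Cells with at least 300 genes, 500 UMIs and at most 20% mitochondrial UMIs were kept. The automatic threshold of Scrublet (in scanpy 1.11.5, Python 3.11.15) marked no cell, so the barcodes of highest doublet score, 0.8% for each 1000 barcodes, were left out (746, 737, 342 and 422 in PCSp mice 1 and 2 and PSp mice 1 and 2). Clusters came from 2000 variable genes, 30 components, 15 neighbours and Leiden resolution 1, with 59 genes of the Hox loci left out, and were named from fixed marker lists; sub-clusters of too few markers or low depth stayed unnamed. Rebuilt names may differ from the authors'. UMI counts were summed by mouse and type and tested with edgeR 4.0.16 (R 4.3.3): TMM scaling, filterByExpr, quasi-likelihood F-test, two-sided, Benjamini-Hochberg adjustment over all genes tested, threshold 0.05. Genotype was fitted in each type with at least 20 cells in every mouse; cell types were compared with the mouse as a block. The fits were tested on simulated counts. Alternatives were DESeq2 1.42.0, RLE scaling, no count filter, Leiden resolution 2, a stricter cell filter, no block and each mouse left out. A further one, for genotype, drew the same number of cells of each sub-cluster from every mouse. A run without the 5 epithelial sub-clusters whose median was under 3000 UMIs was chosen after seeing the data.

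Genes at 10 CPM or more in some type are described, with the 2 of smallest p in each genotype comparison and, from each list, in each comparison of classes; some genes that this rule names are not reported here. The members and the lists were chosen with earlier results of these data known. Limits for a count of 0 use 3 counts over the summed UMIs and cover counting error only. Promoter sequences are from RefSeq (GRCm38.p6); coordinates of the clusters were not needed for any test. No paired test of genotype was made, since mice were numbered in the order of their entries.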

Additional observations from a re-analysis of the deposited data

How the results depend on the processing

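The Hox genes recomputed under the alternatives were those called and, in each genotype comparison, the 2 of smallest p. None of these reversed its direction. Others named with a fold change, such as Hoxb13 and Hoxa13 between the genotypes in epithelium, were not recomputed. Of the values recomputed for single genes, 1794 stayed on the same side of the threshold, 117 lost the call and 3 gained it; by setting, 19 were lost with DESeq2, 12 at Leiden resolution 2, 9 with the stricter cell filter, 3 with no filter on low counts and 1 with RLE scaling. In the comparisons of cell types, 21 calls were lost without PCSp mouse 1, 12 without PCSp mouse 2, 12 without PSp mouse 1 and 17 without PSp mouse 2. Without the epithelial sub-clusters of low depth, an alternative chosen after seeing the data, 1 call was lost. No paired analysis was possible because the mice carry no replicate number of their own in the labels; for the comparisons of cell types, the fit without the mouse as a block lost 10 calls of single genes and gave 3 lower Hox genes in Ltf luminal cells in place of 6. With no filter on low counts, PCSp over PSp had 1 Hox gene called in Ltf luminal cells in place of 0, fibroblasts over endothelium had 12 higher in place of 6, matrix fibroblasts 2 higher in place of 1 and niche fibroblasts 2 lower in place of 1. With DESeq2, adventitial fibroblasts had 2 lower in place of 5, matrix fibroblasts 0 higher in place of 1 and 1 lower in place of 2, and niche fibroblasts 0 lower in place of 1. At resolution 2, Ltf luminal cells had 2 higher in place of 7, matrix fibroblasts 2 higher and niche fibroblasts 5 higher in place of 3. With the stricter cell filter, Ltf luminal cells had 3 lower and matrix fibroblasts 2 higher. Leaving out each mouse in turn gave, as lowest and highest counts, 0 and 1 called between the genotypes in secretory luminal cells, 0 and 1 in smooth muscle and pericytes, and 0 and 1 in the comparison of that change between epithelium and fibroblasts. It gave 1 and 4 higher in smooth muscle and pericytes over fibroblasts, 5 and 9 lower in basal cells, 1 and 3 higher in cycling cells and 3 and 4 lower in adventitial fibroblasts. In matrix fibroblasts it gave 0 and 2 higher and 1 and 2 lower, and in niche fibroblasts 0 and 1 lower. With cells thinned to 2000 UMIs, which leaves out shallower cells, the summed Hox level was 367 CPM in epithelium, 389.9 CPM in fibroblasts and 525 CPM in endothelium, and the order of the classes was the same. Apart from fewer samples where a mouse was left out and more genes tested with no filter, the cause of these changes was not tested. Depth limits the small types most: smooth muscle and pericytes, lymphatic endothelium and glia rest on few cells a mouse. A gene at 0 there was not detected, and may be present below the limit that the depth allows, such as the one given for lymphatic endothelium.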

Other observations

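Sub-clusters that met no marker list also differed in their Hox genes, and are given as values with no test. Those of epithelium and fibroblasts entered neither side of the tests of states and types. The epithelial sub-cluster of 1037 cells led by Cdhr1 and Spink5 had mean levels of 83.2 CPM for Hoxb13, 20.2 CPM for Hoxa13 and 16.3 CPM for Hoxd13, and one of 375 cells had 92.3 CPM of Hoxa9 and 41.3 CPM of Hoxd11. A sub-cluster of 366 cells led by Psca and Upk1a had 40.6 CPM of Hoxb13, 33.1 CPM of Hoxb9 and 3.60 CPM of Hoxc10. Of the 2 large epithelial sub-clusters of low depth, the one of 2616 cells had 98.5 CPM of Hoxb13 and the one of 1714 cells had 28.7 CPM of Hoxb13 and 41.1 CPM of Hoxd4. An endothelial sub-cluster of 29 cells had 176 CPM of Hoxb9 and 107 CPM of Hoxa7.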
